A study of Homo sapiens with 16 samples.

Results

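Regions of open chromatin that proliferating and senescent fibroblasts shared, but that had no listed peak once JUN-family transcription factors were knocked down, numbered 4814 of 149504 regions. They were chosen from ATAC-seq peak lists of IMR-90 ER:Ras cells. ATAC-seq maps open chromatin by letting a transposase insert sequencing adapters into accessible DNA. IMR-90, a line of fibroblasts established from human lung, here carries ER:Ras, a Ras oncoprotein that 4-hydroxytamoxifen (4-OHT) switches on. Peaks of the 10 paired-end lists on chromosomes 1 to 22 were merged where they overlapped by 1 bp or more. A region was kept when both lists of proliferating cells (Pro), all 4 lists of senescent cells (Sen) and both lists of FOXF1/2 knockdown (siFOXF1/2) held a peak there, and neither list of JUN-family knockdown did. These are called JUN-lost shared regions below, where "lost" means not listed.

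The Pro cells received the control siRNA siCtrl and, per their treatment label, no 4-OHT. All other groups were treated with 100 nM 4-OHT for 6 days, with siCtrl in Sen, siFOXF1/2 in the FOXF1/2 knockdown, and siRNA titled cJUN/JUND-KD in the JUN knockdown, whose treatment label also lists JUNB. Cell type labels read senescent fibroblast in every library, Pro included, so Pro rests on the titles. A further 6 libraries were sequenced as single reads, 2 each of Sen with siCtrl, of Sen with sip300/CBP and of Sen with sip65. These 6 were not used to choose the regions. All groups derive from 1 line with the same inducible transgene, and the labels do not say whether replicates were separate cultures, so spread between libraries may be technical. How well each knockdown worked is not visible in a list of peaks. An hg19 sequence and annotation were not used here, so regions are named by hg19 position without a gene, and the fibroblast label was not checked against marker promoters.

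JUN proteins (c-JUN, JUNB and JUND) pair with each other or with FOS-family partners to form AP-1, a leucine-zipper factor that binds short palindromic DNA elements, mostly in enhancers. Ras signalling through MAP kinases raises AP-1 activity, and in fibroblasts AP-1 helps keep enhancers free of nucleosomes together with cell-type factors. FOXF1 and FOXF2 are forkhead factors of the lung mesenchyme. The acetyltransferases p300 and CBP are coactivators recruited by AP-1 and many other factors, and p65 (RELA) is the transactivating NF-kB subunit that drives much of the inflammatory secretion of senescent cells.

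On chromosomes 1 to 22 the shortest paired-end list, JUN-family knockdown replicate 2, had 58955 peaks and the longest 105828. Replicate 1 of that knockdown had 61426, Pro 63860 and 64904, and the Sen lists 96512 to 100656. With lists of equal length the JUN-lost shared regions numbered 1469, and the part of list length in the loss was not tested. Level is used below for the summit pileup, the count stacked at the peak's highest point, divided by the library's genome-wide background coverage. Whether the pileup counts fragments or reads is not given. Background coverage was 1.74 to 3.08 with paired ends but no more than 0.195 to 0.475 with single reads. A peak was therefore listed only from a level of 4.58 to 6.31 upward in the first set and 14.7 to 25.7 in the second. These thresholds are called detection floors.

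The JUN-lost shared regions were mostly weak peaks. Of the 46279 regions held by both Pro, all 4 Sen and both siFOXF1/2 lists, 10.4% had no peak in either JUN-family knockdown list, which are the 4814 members, 4268 had a peak in 1 of them and 37197 in both. The last are called constitutive. Over all 74746 regions present in every Sen list, 31.6% were absent from both JUN-family knockdown lists. Peak strength, taken as the lowest −log10 q over the 4 Sen lists, had a median of 26.0 among members, 32.9 among regions held by 1 knockdown list and 69.1 among constitutive regions. In the weakest of 10 equal bins of strength 1718 of 4628 regions (37.1%) were members, against 23.6% in the second bin, 7.35% in the fifth and 0.0648%, or 3 of 4628, in the strongest. Since these lists chose the members, the values are a description and no test was made.

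**Figure D1:**
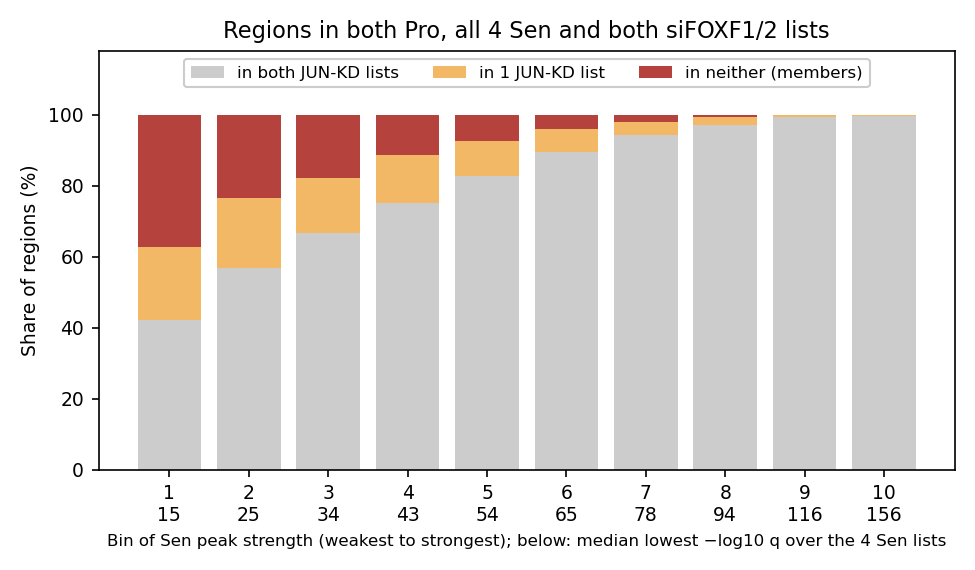
Share of regions (%, stacked bars) held by both, 1 or neither JUN-family knockdown (JUN-KD) list, in 10 bins of peak strength in senescent cells (x axis, with the bin's median lowest −log10 q over the 4 Sen lists). The members, at the top of each bar, make up 37.1% of the weakest bin and 0.0648% of the strongest.

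Over the 8 lists that held them, 14 of the 4814 members (0.291%) had a lowest −log10 q under 5. No share over all regions stands beside this count, so it is a description only. How near members came to a knockdown peak is not visible in the lists. Without JUN-family knockdown replicate 1 or 2 in the rule, members numbered 7047 or 6849. The 3 just inside were chr6:52498935-52500251 at 4.07, chr15:58598986-58600167 at 4.12 and chr19:42376944-42377794 at 4.12. The first of these had levels of 10.9 and 9.61 in Pro and of 5.51, 6.80, 7.20 and 7.01 in Sen, the Sen values being near the floors. Just outside lay regions with a barely listed knockdown peak, led by chr9:37036677-37037862 at a −log10 q of 4.03 and a level of 5.84 in JUN-family knockdown replicate 1, against 10.5 to 16.4 in Sen. It was followed by chr5:134566048-134566730 at 4.16 in replicate 2, with a level of 6.96 there against 22.6 to 27.6 in Sen. A further 4007 regions absent from both knockdown lists missed the set by 1 of the other 8 lists, mostly a Pro list (1598 for replicate 1 and 1191 for replicate 2).

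Proliferating and senescent cells had median levels in the same range at the members. The median level was 18.9 and 19.2 in the 2 Pro libraries. In Sen it was 22.04, 24.4, 18.6 and 18.3 in replicates 1 to 4, so the Pro values lay inside the Sen range. With libraries scaled to equal medians on constitutive regions this was not so, since Pro stood at 16.6 and 16.8 and Sen between 17.9 and 20.9. In siFOXF1/2 the median was 21.03 and 21.4 on this scaling and 26.4 and 27.5 by background, above every other library on each. By background, the highest member in each library stood between 69.0 (Sen replicate 4) and 133 (Pro replicate 1). Constitutive regions were higher throughout, with medians of 42.1 to 53.0 in these 8 libraries and 22.1 and 26.9 in the 2 JUN-family knockdown libraries.

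**Figure D2:**
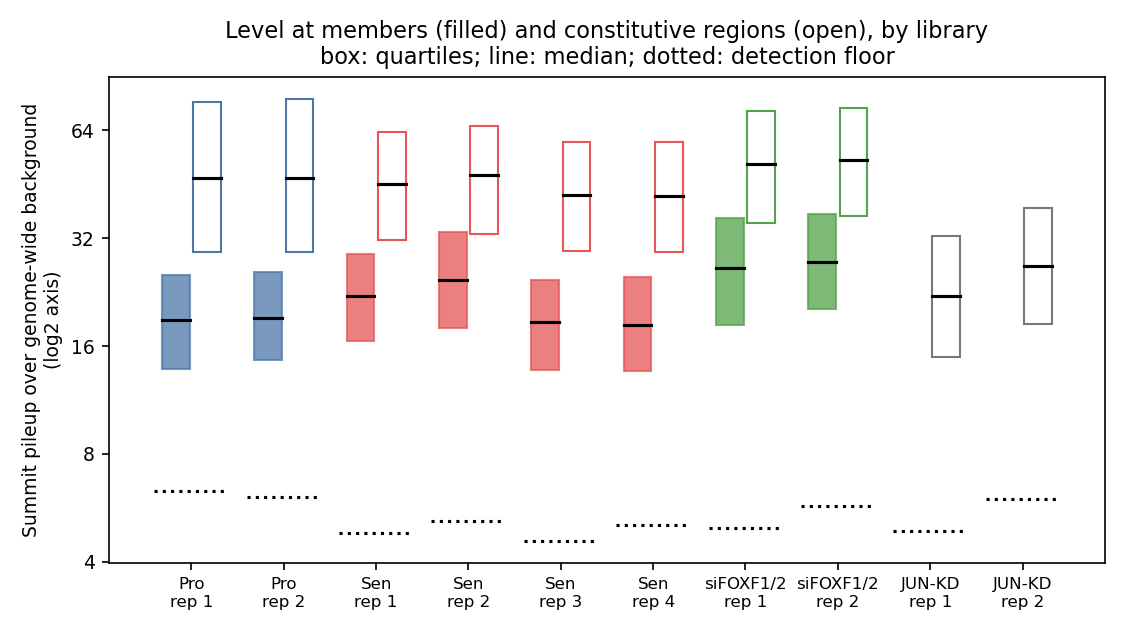
Summit pileup over genome-wide background (log2 axis) in each paired-end library at the 4814 members (filled boxes) and the 37197 constitutive regions (open boxes). Boxes span the quartiles, lines mark medians and dotted lines the detection floor. Members had no peak in the JUN-family knockdown libraries, whose floors lay at 4.87 and 5.97.

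Sen over Pro, the median log2 ratio of levels over the members was 0.060, with quartiles of -0.28 and 0.46, less than the largest SD between library medians in a group (0.20). Without Sen replicate 2 it was -0.0093. At the constitutive regions the median was -0.25, and -0.36 when they were weighted to the members' strengths in Sen. Individual members varied: the central 98% of log2 ratios ran from -1.23 to 1.63. All 4 Sen levels lay above both Pro levels at 1301 members (27.0%), where the background over the 46279 regions of the 8 lists was 22.4%. All 4 lay below both Pro levels at 858 members (17.8%), against a background of 41.4%. When libraries were instead scaled to equal medians on constitutive regions, these counts were 1641 (34.1%, background 26.9%) and 753 (15.6%, background 37.2%), and the median ratio was 0.14. At equal strength in Sen, constitutive regions had median levels of 31.3 and 31.5 in Pro, above the 18.9 and 19.2 of the members. Matching on −log10 q did not equalise the Sen levels themselves, which were 26.6, 26.3, 24.6 and 23.6 at the matched constitutive regions, also above the members. Both groups were used by the rule, so these are descriptions.

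Knockdown of FOXF1/2 left these regions listed by definition, and their levels there were on the high side. Over Sen, the median log2 ratio at members was 0.38 (quartiles 0.053 and 0.69) by background scaling. Constitutive regions shared this, with a median of 0.26, and of 0.41 at the members' strengths, slightly above that of the members. Scaling on constitutive regions took the members' median to 0.14, against 0.018 over constitutive regions and 0.17 when these were weighted to the members' strengths. Library medians at members were then 21.03 and 21.4 in siFOXF1/2, both above the 17.9 to 20.9 of Sen. Both siFOXF1/2 levels exceeded all 4 Sen levels at 2192 members (45.5%, background 48.5%) and lay below all 4 at 326 (6.77%, background 8.33%). With the other scaling, the counts were 1458 (30.3%, background 23.4%) and 752 (15.6%, background 18.9%). None of these backgrounds was matched on strength. The comparison shares its Sen libraries with the Pro comparison. Set against Pro, both siFOXF1/2 levels were above both Pro levels at 2903 members (60.3%, background 41.9%) and below at 577 (12.0%, background 33.8%), or at 2472 (51.4%, background 33.6%) and 885 (18.4%, background 43.1%) on constitutive scaling.

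The 4 Sen libraries did not agree fully at these regions. Members stood lower in Sen replicates 3 and 4 than in replicates 1 and 2, with a median log2 ratio of -0.32 by background scaling and -0.17 when scaled on constitutive regions. Both levels of replicates 3 and 4 lay below both of replicates 1 and 2 at 2915 members (60.6%, background 47.8%) and above at 220 (4.57%, background 12.9%). On constitutive scaling these were 2124 (44.1%, background 28.2%) and 530 (11.0%, background 27.2%). At constitutive regions the ratios were -0.12 and 0.027. The peak names of Sen replicates 3 and 4 share their style with the JUN-family knockdown lists, whereas those of replicates 1 and 2 share theirs with Pro and siFOXF1/2, and no label gives a reason. The part of this in the loss was not tested, but the members numbered 5121 when only Sen replicates 3 and 4 were required and 5530 with only replicates 1 and 2.

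How far the members fell short in JUN-family knockdown can only be bounded, since an absent peak shows that the level stayed under the floor. The lowest Sen level divided by the highest knockdown floor gives a lower bound on the fold where local background equals the genome-wide value. Where local background is higher, the floor is higher and this bound is too large. Counting error and the caller's minimum length were left out. The median bound over members was 2.81 (0.822 to 11.6), and 3702 members (76.9%) reached at least 2-fold. Over the 74746 regions in every Sen list, 20.7% were absent after knockdown and reached this bound. Among the 23622 of these that were absent after knockdown, as all members are by rule, the share was 65.4%, and 26.7% and 38.5% with the constitutive scaling and the local floor described next. At 23 members (0.478%), or 77 (1.60%) with the local floor, the bound was under 1, where even an unchanged level could have gone unlisted. Among the 23622 regions these shares were 0.826% and 2.64%.

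The size of the bound depended on the scaling. The knockdown libraries had lower levels also where peaks were kept, and when all libraries were scaled to equal medians on constitutive regions the knockdown floors rose to 9.08 and 9.14. The median bound was then 1.74, 1855 members (38.5%, background 8.45%) reached 2-fold, 509 (10.6%) reached 3-fold and 505 (10.5%) were under 1. Among the 23622 regions absent after knockdown, 6.40% reached 3-fold and 17.6% were under 1. Local background matters as well: in Sen it stood at a median of 1.81 times the genome-wide value at members. The local floor took each region's local background in Sen and assumed the same ratio to the genome-wide value in the knockdown. With it, the median was 1.99 and 2397 members (49.8%, background 12.2%) reached 2-fold. The local floor and the constitutive scaling were not combined, so the bound with both is not known. The rule used this contrast, so nothing is read from the excess over the background shares.

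**Figure D3:**
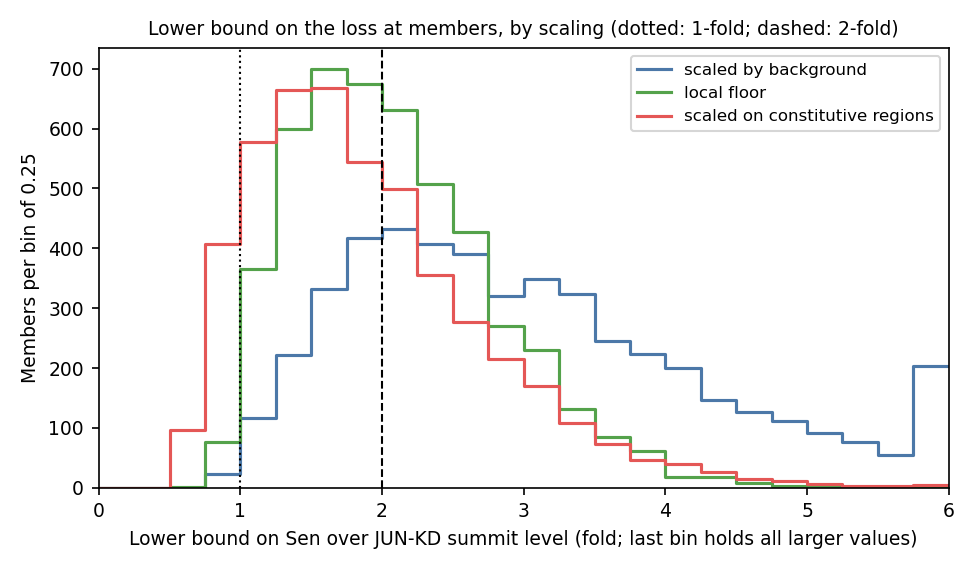
Number of members (y axis, bins of 0.25) by the lower bound on the Sen over JUN-family knockdown level (x axis, fold) under 3 scalings, with all larger values in the last bin. Dotted and dashed lines mark 1-fold and 2-fold. Medians were 2.81 scaled by background, 1.99 with a local floor and 1.74 scaled on constitutive regions.

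The strongest member by its weakest list was chr6:160137293-160138385, 1093 bp wide. Its levels were 55.1 and 61.7 in Pro, 65.1, 83.6, 62.5 and 63.5 in Sen and 86.5 and 78.4 in siFOXF1/2. All 8 libraries were high and the Sen and Pro ranges did not overlap, with 1 Sen library, replicate 2, above the rest of its group. The bound on the loss was 10.5-fold by background, 6.44-fold scaled on constitutive regions and 4.65-fold with a local floor. The next, chr1:155618361-155618786, was as high in Pro (57.4 and 52.1) as in Sen (52.0, 52.4, 46.8 and 51.8) and siFOXF1/2 (53.95 and 58.1), with overlapping groups and a bound of 7.84-fold, or 4.91 and 4.48 by the other scalings.

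At chr17:79618570-79619109 the Pro levels of 55.1 and 51.6 stood above all Sen levels (35.5, 43.2, 37.0 and 38.6), and siFOXF1/2 was at 63.1 and 52.4, also above Sen. The bound was 5.95, 3.51 and 3.76 by background, constitutive scaling and local floor. At chr3:170426795-170427289 Sen gave 47.5, 48.4, 35.3 and 32.3, Pro 48.2 and 48.5, and siFOXF1/2 79.2 and 84.1. Here the siFOXF1/2 libraries stood well above the other 6, and Sen split into replicates 1 and 2 against 3 and 4. By contrast chr5:36227991-36228571 was level in all groups, with 39.0 and 47.5 in Pro, 37.3 to 54.01 in Sen and 40.6 and 41.5 in siFOXF1/2, and a bound of 6.25-fold. Each of the 10 strongest members kept a bound of at least 2.86-fold under constitutive scaling.

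**Figure D4:**
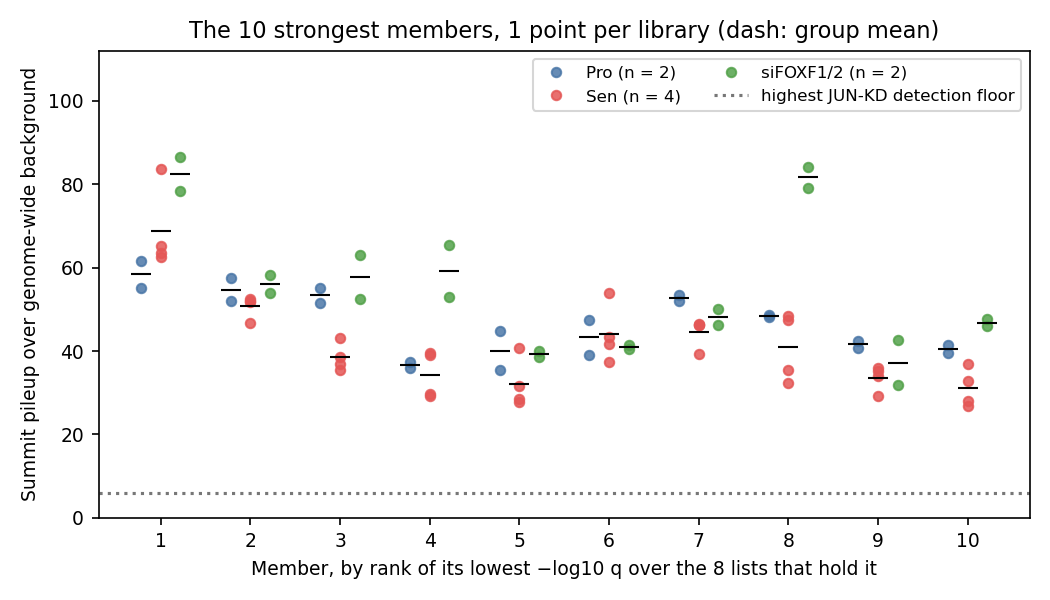
Levels (summit pileup over background, y axis) of the 10 strongest members (x axis, rank) with 1 point per library and a dash for each group mean. The dotted line at 5.97 is the higher of the 2 JUN-family knockdown floors, and the lowest point is a Sen level of 26.8 at rank 10.

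Ordering by the bound put other regions first. The largest bound, 11.6-fold by background and 7.38-fold by constitutive scaling, was at chr17:9292288-9292926. Its levels were 31.6 and 30.8 in Pro, 83.7, 89.2, 72.6 and 69.0 in Sen and 66.6 and 70.6 in siFOXF1/2. So both Pro libraries were far below the senescent ones, and the local floor still gave 5.78-fold, the highest of all members. A similar order was seen at chr5:73833944-73834550, with 26.4 and 31.9 in Pro, 56.5 to 73.6 in Sen and 66.6 and 87.7 in siFOXF1/2, and a bound of 9.47-fold.

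High levels did not always give a firm bound. The region chr1:156182679-156183291 had the highest Pro levels of all members, 133 and 108, with 85.8, 85.6, 68.4 and 63.9 in Sen and 93.0 and 104 in siFOXF1/2. Its bound by background was 10.7-fold, yet its lowest −log10 q was 18.5 and the local floor left 1.34-fold. That floor follows the Sen background around the region. At chr5:131599408-131599959, with 63.4, 74.4, 67.4 and 68.6 in Sen, the bound went from 10.6-fold to 2.24-fold with the local floor.

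Most members were single peaks of intermediate width. Their median width was 645 bp (quartiles 510 and 832, range 209 to 2854), against 838 bp for constitutive regions, or 734 bp at equal Sen strength, and 563 bp for senescence-opened regions lost only without JUN, the 8380 regions with peaks in Sen and siFOXF1/2 but not in Pro or JUN-family knockdown. At 4393 members (91.3%) each of the 8 lists held a single peak, as did 86.5% of constitutive and 94.6% of those senescence-opened regions. Summits lay close together: the 4 Sen summits spanned a median of 50 bp and fell within 100 bp of each other at 78.5% of members, against 80.5% of constitutive regions. The Pro summit was a median of 21 bp from the Sen one, and within 100 bp at 87.3%, so the same element was open in both states at most members. In siFOXF1/2 these values were 17.5 bp and 88.6%. Peaks themselves were shorter in Pro, with median widths of 280 and 316 bp, than in Sen (496, 489, 381 and 312 bp), except that Sen replicate 4 was level with Pro.

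Among the 5 widest members the bound depended strongly on the floor used. The widest, chr12:76418143-76420996, covered 2854 bp, with levels of 28.1 and 24.3 in Pro, 60.6, 64.4, 35.3 and 35.5 in Sen and 100.6 and 87.2 in siFOXF1/2. Sen replicates 1 and 2 stood clear of replicates 3 and 4, and the bound was 5.92-fold by background, 3.77-fold on constitutive scaling and 1.03-fold with the local floor. At chr19:1468989-1471573 these were 1.75, 1.12 and 0.842-fold, so with the last an unchanged level could have gone unlisted. Of the 5, only chr3:123836331-123838621, with 37.0 to 48.4 in Sen and 40.8 and 41.5 in Pro, kept a bound above 2 with each scaling, at 2.86-fold with the local floor.

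The members were spread over the genome. Their share among regions of the 8 lists ran from 7.27% on chromosome 19 (127 of 1747) to 12.1% on chromosome 9 (257 of 2132), around the 10.4% of the whole set. Most stood alone. With gaps of up to 50 kb allowed, 3425 had no other member nearby and 1389 (28.9%) fell into 627 groups, of which 4 held 5 members and 15 held 4. No grouping of other regions stands beside these counts, so they are a description only. The nearest other region of the Sen lists was a median of 7252 bp away. That neighbour was itself absent after JUN-family knockdown for 1584 members (32.9%), against 30.8% for constitutive regions at equal strength and 31.6% over all Sen regions. The share for members is close to that background.

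The 4 groups of 5 members differed in makeup. Since members are absent after JUN-family knockdown by rule, 5 of the absences in each span were fixed by the choice of spans. Nothing is read from the share of absent regions in them. At chr18:11954340-12041953 (87.6 kb), 8 of 11 Sen regions were absent after knockdown and 3 were constitutive, and the members' median levels were 31.0 and 26.8 in Pro, 22.6 to 34.0 in Sen and 36.4 and 46.2 in siFOXF1/2. At chr11:46294398-46402902 (109 kb) 6 of 16 were absent, at chr7:139510489-139609866 (99.4 kb) 6 of 11, and at chr22:45021877-45099014 (77.1 kb) 5 of 9. All 4 spans also held constitutive regions, numbering 3, 8, 3 and 4 in the order given.

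The single-end libraries gave values that the rule had not used. They are shallow, and 1780 members (37.0%) were in none of the 6 lists, against 6.35% of constitutive regions, while 74 (1.54%) were in all 6, against 30.5%. The single-end Sen lists held 1573 members (32.7%, 95% Wilson interval 31.4 to 34.0) and 2082 (43.2%, 41.9 to 44.6). Constitutive regions matched on paired-end Sen −log10 q, whose Sen levels were still higher (23.6 against 18.3 in replicate 4), were listed in 40.8% and 53.2% of cases. The differences, members minus matched regions, were -8.09 and -9.99 percentage points in these control libraries, with no test between the sets. Intervals cover counting error over regions only.

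Knockdown of the coactivators p300 and CBP gave 38.4% (37.0 to 39.8) and 23.2% (21.99 to 24.4) of members listed. The mean was 30.8% ± 10.8 (SD, n = 2) against 38.0% ± 7.48 (SD, n = 2) in Sen, a difference of -7.18 percentage points with overlapping groups and a two-sided exact permutation p of 0.667, where 2 libraries against 2 can give no less than 0.333. The value rested on single libraries: it was 0.447 without knockdown replicate 2, -14.8 without knockdown replicate 1, -12.5 without Sen replicate 1 and -1.89 without Sen replicate 2. Lists of equal length, a cut that also shortened the Sen lists, gave -3.97. Members minus constitutive regions of equal strength gave -16.7 and -12.5 percentage points after this knockdown, both below the -8.09 and -9.99 of Sen (difference -5.54, exact permutation p = 0.333, the smallest possible).

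Knockdown of p65 gave 20.4% (19.2 to 21.5) and 4.07% (3.55 to 4.67) of members listed, a mean of 12.2% ± 11.5 (SD, n = 2) and 25.7 percentage points below Sen. Both libraries were below both Sen libraries, and the two-sided exact permutation p was 0.333, again the smallest possible. The p65 lists were also the shortest of the 6, with 17707 peaks in replicate 2, and lists of equal length gave a difference of -3.32. That cut shortened the Sen lists too, and the Sen share after it is not given here. Against constitutive regions of equal strength the differences were -17.2 and -7.39 percentage points, on either side of those in Sen (difference -3.24, exact permutation p = 1).

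**Figure D5:**
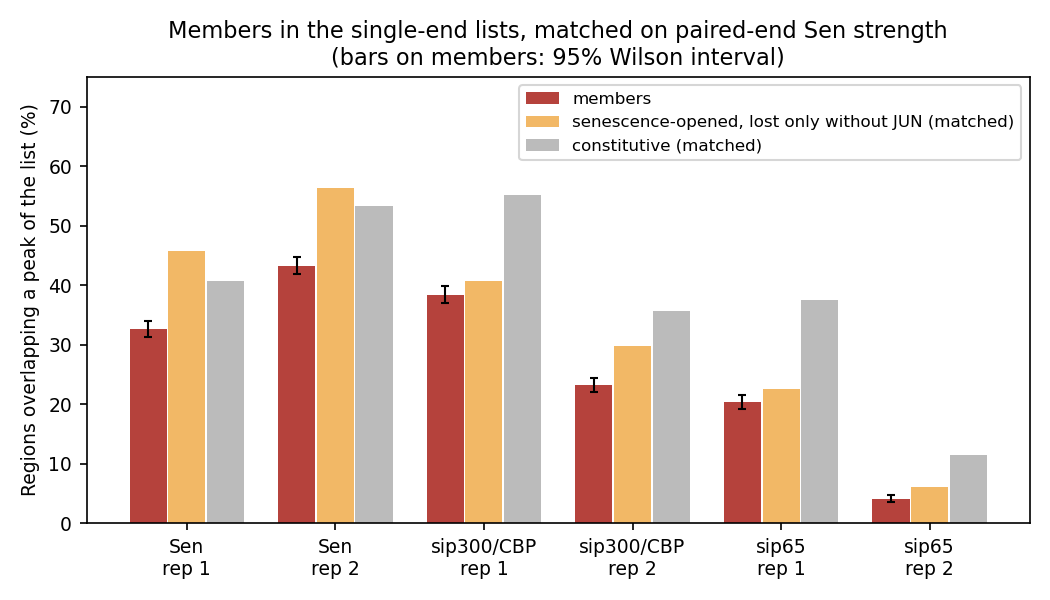
Share of members (red, with 95% Wilson intervals), of senescence-opened regions lost only without JUN (orange) and of constitutive regions (grey) that overlapped a peak in each single-end list, the last 2 weighted to the members' paired-end Sen strengths. Members were listed less often than constitutive regions in all 6 libraries, from 43.2% against 53.2% in Sen replicate 2 to 4.07% against 11.5% in sip65 replicate 2.

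Of the members, 1290 (26.8%) were held by both single-end Sen lists, where a loss can be counted. After p300/CBP knockdown 341 of them (26.4%, 24.1 to 28.9) were in neither list, beside a background of 15.9% over the 42164 regions that both Sen lists held. Matched on single-end strength, constitutive regions were absent in 12.2% of cases, and matched on strength in both layouts, in 15.2%. The senescence-opened regions lost only without JUN were absent in 31.1% on this double match. Members were therefore nearer to them than to the constitutive set, a difference between regions of these libraries that has no test. With knockdown replicate 2 as the only list, 46.7% of members were absent against 34.8% of the doubly matched constitutive regions. With replicate 1 only, these were 31.4% and 18.4%.

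After p65 knockdown 656 of the 1290 (50.9%, 48.1 to 53.6) were in neither list, against a background of 26.8%. The doubly matched constitutive regions were absent in 29.4% and the senescence-opened ones in 53.9%. Replicate 1 alone gave 52.7% against 31.3% for constitutive regions, and replicate 2 alone 87.8% against 75.1%. The direction was the same in both libraries, with the higher share in the shorter list. Members at least 2 times above the floor of both knockdown lists numbered 91 for p65, of which 27 (29.7%) were absent, and 302 for p300/CBP, of which 35 (11.6%) were absent. The background over all regions so chosen was 4.23% for p65 and 5.51% for p300/CBP. Without matching, constitutive regions gave 2.05% and 3.53%, and the senescence-opened regions lost only without JUN gave 28.8% and 14.8%. The comparisons with p300/CBP and with p65 share their Sen libraries. At members listed in all 4 libraries, the median log2 level over Sen was 0.11 for p300/CBP (624 members) and -0.016 for p65 (133 members), close to the 0.13 and -0.016 of constitutive regions.

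The strongest members without a p300/CBP knockdown peak included chr7:92823705-92824149, at single-end levels of 65.1 and 40.0 in Sen, none listed in p300/CBP knockdown and 31.9 and 51.3 in p65 knockdown. Its paired-end levels were 13.2 and 12.6 in Pro and 22.9 to 36.0 in Sen. At chr6:145365641-145366270 Sen stood at 69.4 and 40.0 and p65 knockdown at 47.8 and 46.2. Both regions thus had a peak in both p65 knockdown lists, while absence from both p300/CBP knockdown lists was how they were chosen. Of the 5 strongest so chosen, chr8:145214969-145215376 was also in both p65 knockdown lists. The others, chr7:114997120-114997743 and chr2:39224932-39225425, were in replicate 1 of that knockdown but not in replicate 2.

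Among members chosen for absence from both p65 knockdown lists, the reverse was seen at chr2:74974522-74975067. It had 82.4 and 44.2 in Sen, 64.3 and 44.3 in p300/CBP knockdown and no peak in p65 knockdown. The same order was seen at chr16:71021180-71021706, with 86.8 and 42.1 in Sen and 121 and 81.7 in p300/CBP knockdown. In the paired-end data the latter stood out for its siFOXF1/2 levels of 83.4 and 82.0, against 18.0 to 31.6 in Sen and 18.4 and 14.2 in Pro. At chr6:12182785-12183616, which all 6 single-end lists held (99.8 and 65.2 in Sen, 41.6 and 54.5 in p300/CBP and 41.4 and 51.3 in p65 knockdown), the paired-end order was the other way, with 48.8 to 54.1 in Sen against 28.7 and 27.5 in siFOXF1/2 and 17.8 and 16.2 in Pro. Its bound on the loss without JUN was 8.18-fold, or 5.17-fold with a local floor.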

How the data were processed

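ATAC-seq peak lists of 16 libraries, 10 paired-end (35 bp reads) and 6 single-end (75 bp reads), were analysed. The submitters' processing notes name MACS2 2.1.1, Bowtie2 2.3.4.1, deepTools 3.1.1, SAMtools 1.9 and the build hg19, without role or order. Whether reads were shifted, and how peaks were called, is not given in the sources used here. There is 1 deposited list per library. For every peak the deposited lists carry a fold ratio over local background, −log10 p and −log10 q values, a score (10 times −log10 q, not used) and the summit. The lowest −log10 q of a deposited list lay between 4.0 and 4.1.

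Groups came from the sample titles. Peaks of chromosomes 1 to 22 were used (Python 3.11.15, pandas 2.3.3, SciPy 1.17.1). The whole summit pileup and local background were solved from the fold and p-value (100% of peaks, within 0.002 in −log10 p, in proportion above 10), and tested on simulated data. The 1st percentile of local background was the genome-wide background, and the floor is the lowest whole pileup whose p would have been listed there. Strength matching used 10 bins set on the members, or 5 by 5 bins over both layouts, the latter added after seeing the data. Single-end shares were compared by two-sided exact permutation over libraries. Named regions are the 10 strongest members, the 5 with the largest bound, the 5 widest, the 3 just inside the rule, the 5 strongest of each single-end pattern and the 5 largest groups. The members, sets and lists were chosen with earlier results of these data known. Motif searches, gene lists and marker checks that need an hg19 sequence or annotation were not run.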

Additional observations from a re-analysis of the deposited data

Results flagged for a closer look

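Among 38 sets of 4 Sen levels (the median over members and each named member), 4 had 1 library far from the other 3, where chance alone flags about 1 in 20. At chr6:160137293-160138385 Sen replicate 2 stood at 83.6, above 62.5 to 65.1 in the others. Replicate 2 was also the high one at chr7:92823705-92824149, with 36.0 against 22.9 to 24.8. At chr1:155618361-155618786 replicate 3 was low with 46.8, against 51.8 to 52.4. At chr22:37988383-37989028 replicate 4 was low with 39.4, against 46.1 to 46.4. The bounds use the lowest Sen level, so the high values do not enter them, but the low ones set them, at 7.84-fold for chr1:155618361-155618786 and 6.60-fold for chr22:37988383-37989028 by background.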

How the results depend on the processing

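The number of members stayed within 1.5 times 4814 at a −log10 q of at least 5 or 20 (4829 and 6037), with 50% cover, summit windows, chromosome X or subsets of Sen. It ran from 4891 to 7047 without 1 library, but was 1469 with lists of equal length. These are counts only, and how many of the 4814 recur at each setting is not given. Members with a 2-fold bound numbered 3702 by background, 1855 scaled on constitutive regions and 2397 with a local floor (added after seeing the data), and 3702 to 4287 without 1 library. The median log2 ratio of Sen over Pro ran from -0.0093 (without Sen replicate 2) to 0.115 without 1 library and was 0.14 on constitutive scaling, and that of siFOXF1/2 over Sen from 0.32 to 0.45 without 1 library and was 0.14 on constitutive scaling. Members listed after p300/CBP knockdown minus Sen ran from -14.8 to 0.447 percentage points without 1 library (0.447 without knockdown replicate 2), and for p65 from -33.9 to -17.6. The share of members absent after knockdown ran from 31.3% to 46.7% for p300/CBP and from 52.7% to 87.8% for p65 without 1 library. With lists of equal length it was 27.4% for p300/CBP and 50% for p65. It was 11.6% and 29.7% for members at least 2 times above the floor, and 47.0% for p65 above the floor, subsets added after seeing the data. With a replicate block the differences were the same, -7.18 and -25.7, and the exact permutation p was 1 and 0.5, where 0.5 is the smallest possible. Nothing in the labels pairs these libraries, and the correlation of same-numbered deviations over constitutive regions was -0.0012 and 0.0090. Depth limits the single-end values, since a member had to reach a level of 14.7 to 25.7 to be listed. The cause of these changes was not tested.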
